A study of Sus scrofa with 6 samples.

Results

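The genes described here are the lysosomal hydrolases, their cofactors, the main lysosomal membrane proteins and the MiT factors that act on lysosomal genes. They were chosen by gene name from a list of 41 names, and 37 of them are gene names in the deposited table of 18007 genes. HEXA, IDS and CLN3 are listed in that table by Ensembl identifier only, and their values are given separately. CTSK was found neither by name nor by identifier and is not analysed here. RNA-seq compared porcine embryonic fibroblasts (PEFs) with induced pluripotent stem cells (piPSCs) made from the same lines. PEF5, PEF7 and PEF8 were grown from ear tips of embryos at embryonic day 90, from a Large White boar and a Meishan sow, and carried no added factor. piPSC5, piPSC7 and piPSC8 carry the number of the PEF line they came from and were made with lentiviruses carrying OSKM (Oct4, Sox2, Klf4 and cMyc) under a doxycycline-dependent promoter and the rtTA activator that this promoter needs. Each piPSC line was raised from picked colonies on mouse embryonic fibroblast feeders, and the study describes the lines as dependent on doxycycline. Each line gave 1 library, so n = 3 lines per group and p-values measure the spread between lines.

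Lysosomes are acidic organelles in which hydrolases break down proteins, glycans and lipids that arrive from endocytosis and autophagy. Most hydrolases are made as precursors in the endoplasmic reticulum, receive a mannose 6-phosphate tag in the Golgi and are carried to the lysosome by receptors. TFEB, TFE3 and MITF, the MiT family of basic helix-loop-helix factors, bind short E-box and M-box motifs in the promoters of many lysosomal genes. Kinase signalling through MTORC1 on the lysosomal surface holds these factors in the cytoplasm when nutrients are plentiful.

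Fragment totals worked back from the FPKM values were between 15146576 and 17836510 in PEFs and between 11010629 and 15050204 in piPSCs. Of each total, 98.9% to 99.3% lay in the listed genes, so the totals may leave out fragments sequenced outside genes. Summed FPKM (fragments scaled by gene length and by the fragments of the library) of 12 fibroblast markers ran from 6037 to 8658 in PEFs and from 241 to 431 in piPSCs. Of 12 pluripotency markers, 8 are listed by name, and their summed FPKM was 0.144 to 0.202 in PEFs and 2.96 to 9.16 in piPSCs. POU5F1 is not among these 8. NANOG was listed at 0 in piPSC5 and piPSC8 and at 0.0919 FPKM in piPSC7, and SALL4 did not exceed 0.0509 FPKM in a piPSC library. SOX2 had 3.01, 2.49 and 0.129 FPKM in piPSC5, piPSC7 and piPSC8, and LIN28B had 2.51, 0.281 and 8.90. Neither passed the test (limma adjusted p = 0.0626 and 0.0667). ESRRB, ZFP42, CDH1 and EPCAM did not exceed 0.113 FPKM in a piPSC library. Of the 12 fibroblast markers, 11 were lower. FAP was not (limma adjusted p = 0.396), with 7.506 FPKM in piPSC8 against 3.115 in PEF8. The piPSC label was thus met in the loss of most fibroblast transcripts, while all listed pluripotency markers but SOX2 and LIN28B were at or near 0. Y-linked DDX3Y had 3439 fragments in PEF8 and 4207 in piPSC8, and 0 in the 4 libraries of lines 5 and 7. EIF1AY, also Y-linked, had 551 in PEF8 and 456 in piPSC8, and 0 in the same 4 libraries. The study describes all lines as male, and the labels were not changed for this. In libraries of whole cultures, fewer cells of a type and less RNA per cell cannot be told apart.

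The promoters were searched for letters that MiT factors are known to bind, and no expression value entered the search. Promoters were taken as 250 bases before to 50 bases after the RefSeq gene start on Sscrofa11.1, and 36 of the 37 members had a RefSeq start under the same name, with NAGLU as the exception. The E-box core CACGTG, which reads the same on both strands, was present in 9 of these 36 promoters (25%), against 7.92% of 19534 promoters of protein-coding genes. The longer form TCACGTGA, which contains the core, was present in 3 (8.33%), in LAMP1, MCOLN1 and NEU1, against 1.13%. The M-box TCATGTG or its complement CACATGA was present in 4 of the 36, in CTSA, GRN, PPT1 and SCARB2, against 2.36% of all promoters. Member promoters had a median of 62.9% G and C and all promoters 58.7%, and the part of base composition in these shares was not tested. HEXA, listed by identifier only, also holds 2 cores, both in the longer form, and is not counted in these shares. The 9 members listed by name that hold the core are compared with the others further on. The stretches around their cores are printed below. Each is 5′ to 3′ on the strand of the gene, with the core in capitals, and LAMP1 is shown for 2 of its 3 cores.
NEU1, chr7:23958673-23958702, minus strand, core 31 bases before the start: gtgctgaagggtCACGTGaggagttacgcg
LAMP1, chr11:78600629-78600658, plus strand, core 177 bases before the start: attcacggaggtCACGTGgcggcgcgggcg
LAMP1, chr11:78600658-78600687, plus strand, core 148 bases before the start: gcagcgcggcctCACGTGacgggcgccgcc
LAMP2, chrX:98623967-98623996, minus strand, core 45 bases before the start: tctggcccccttCACGTGcggagattggct
MCOLN1, chr2:71613305-71613334, minus strand, core 9 bases after the start: aaccgtgtgggtCACGTGactgggggcgcg
GUSB, chr3:16671968-16671997, plus strand, core 91 bases before the start: ggggaagggggaCACGTGactcacgccccg
TPP1, chr9:3135354-3135383, plus strand, core 214 bases before the start: ctctcctgatgcCACGTGgccatgagaccc
CTSF, chr2:5855016-5855045, plus strand, core 55 bases before the start: gccggcgcgcccCACGTGcctcacgtaaac
CTSA, chr17:48082452-48082481, plus strand, core 16 bases before the start: gatgccagagcaCACGTGactcgagataca
SGSH, chr12:2241829-2241858, plus strand, core 17 bases after the start: cggagcctggtgCACGTGaccggggtgggc

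The question of the comparison was how reprogramming changed the transcripts of the lysosome. Of the 37 members, 28 fell by 2-fold or more in piPSCs with an adjusted p below 0.05, and 0 rose by that rule. Over all 12428 genes tested by limma on log2(FPKM + 1), 2070 (16.7%) were lower by the same rule and 2505 (20.2%) were higher. NEU1, LAMP1 and MCOLN1 also passed the test but fell by less than 2-fold, which makes 31 members lower at any size, against 21.5% of all genes. TPP1, GUSB, SCARB2, CTSS, TFEB and MITF did not pass. At an unadjusted p under 0.05, MITF was the 1 member with a higher value in piPSCs. The median log2 difference (piPSC minus PEF) of the members was -1.86, while the median of all tested genes was 0.20. For 32 members, every piPSC value lay below every PEF value, which held for 26.8% of all tested genes.

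The scale of the table bears on these counts. FPKM values summed to between 337074 and 348943 in PEF libraries and to between 420498 and 437853 in piPSC libraries. Rescaling the libraries to a common median ratio moved the median of all genes to -0.01 and gave 2511 lower and 1879 higher genes. The members then had 30 lower genes and a median of -2.11. Rescaling to equal sums gave 2815 lower and 1986 higher genes over all, and 32 lower members. The median of the members relative to that of all genes was -2.06 as deposited and -2.10 and -2.38 under the rescalings.

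**Figure D1:**
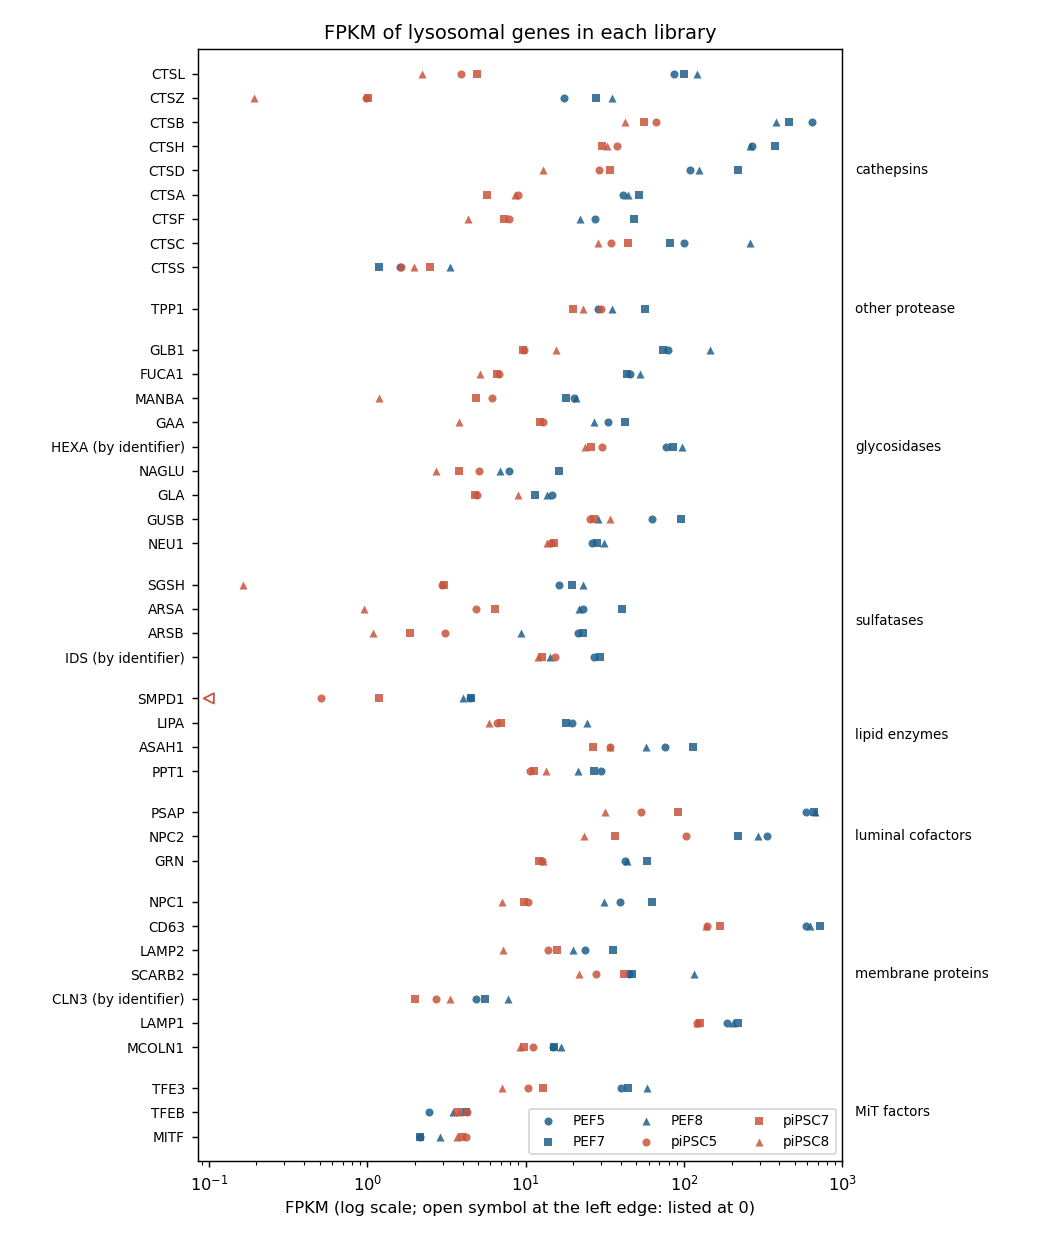
FPKM on a log axis of each lysosomal gene in each of the 6 libraries, grouped by role, with PEFs in blue, piPSCs in red and a symbol for each line. The blue and red symbols are apart for most hydrolases, by the widest gaps for CTSL and CTSZ, and they mix for CTSS, TPP1, GUSB, IDS and TFEB.

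Added over the 37 members, FPKM of PEF5, PEF7 and PEF8 came to 3710, 4092 and 3867. In piPSC5, piPSC7 and piPSC8 it came to 881, 880.2 and 684. The mean was 4.77-fold higher in PEFs, and the members took 1.1% to 1.17% of the FPKM sum of a PEF library and 0.157% to 0.21% of that of a piPSC library. The ratio between groups varied with the role. The summed FPKM of sulfatases was 8.08-fold higher in PEFs than in piPSCs, that of luminal cofactors 7.71-fold and that of cathepsins 7.65-fold. The ratio was 3.72 for glycosidases, 3.02 for membrane proteins, 2.95 for MiT factors and 2.65 for lipid enzymes. The ratio of the MiT factors rests on TFE3, since the means of MITF and TFEB were not lower in piPSCs. These ratios between roles are a description, and no test between roles was made.

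**Figure D2:**
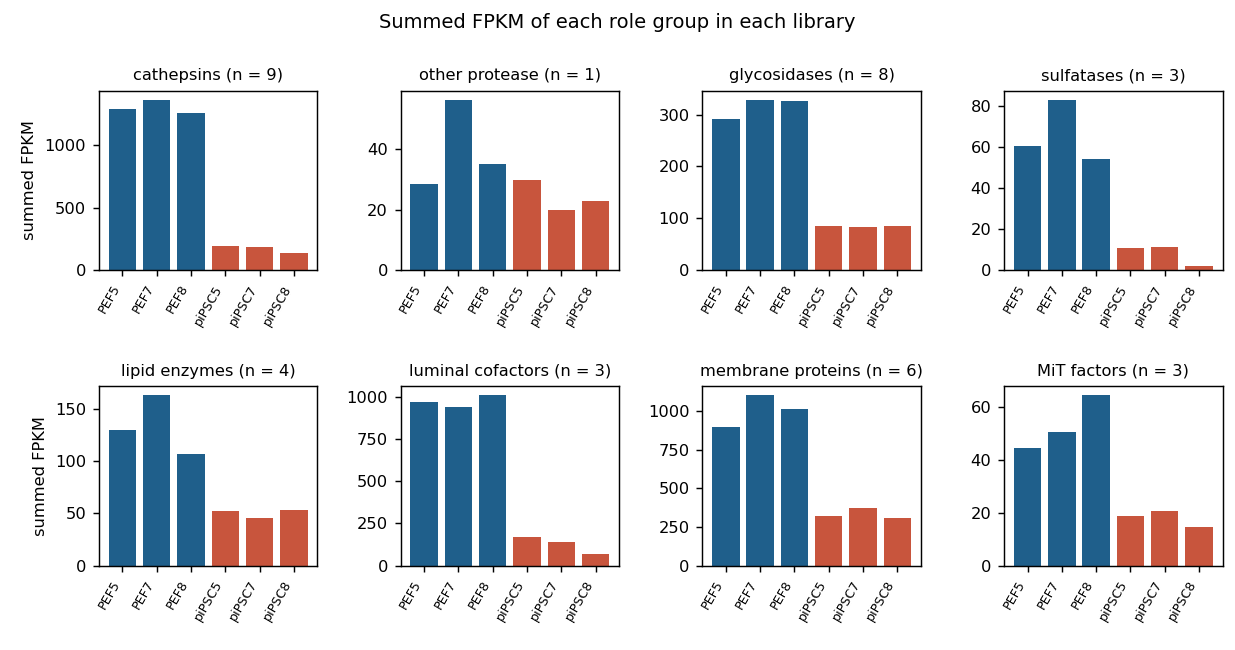
Summed FPKM of each role group in each library, with bars from 0, PEFs in blue and piPSCs in red, and n as the number of genes added. Every piPSC bar is below every PEF bar in 7 of the groups, and TPP1, alone in its group, overlaps (30 in piPSC5 against 28.5 in PEF5).

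Cathepsins are the main lysosomal proteases, and 8 of the 9 measured members were lower in piPSCs, with a median log2 difference of -2.56. CTSV and CTSO, cathepsins outside the main list, were not lower, with 0.01 (limma adjusted p = 0.963) and 0.16 (limma adjusted p = 0.781). CTSL (ENSSSCG00000010948, chr10:27666976-27675171), a cysteine endopeptidase, had 86.1 FPKM in PEF5, 100.4 in PEF7 and 121 in PEF8. Its values in piPSC5, piPSC7 and piPSC8 were 3.89, 4.90 and 2.22 FPKM. The lowest PEF value was thus far above the highest piPSC value, and the log2 difference of -4.50 (SE 0.26, limma adjusted p = 0.000179) had the largest size of all members. CTSZ (ENSSSCG00000007522, chr17:59141497-59149377), a carboxypeptidase, had 17.5, 27.7 and 35.3 FPKM in PEF5, PEF7 and PEF8. It had 0.984, 1.01 and 0.192 FPKM in piPSC5, piPSC7 and piPSC8, the last from 3 fragments. Its log2 difference was -4.00 (SE 0.33, limma adjusted p = 0.000397), and its FPKM was 36.8-fold higher in PEFs on the means. CTSZ overlaps the row of NELFCD, which runs on the other strand, and the library kit does not mark strand.

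CTSB, a cysteine protease that also acts as a peptidase, was the most abundant of the 9 cathepsins per length in all 6 libraries. It had 494 ± 133 FPKM in the PEF libraries and 54.9 ± 12.2 in the piPSC ones (SD, n = 3), with a log2 difference of -3.14. CTSV, outside the main list, had 94.4 ± 22.7 FPKM in PEFs. It exceeded CTSB in each piPSC library, with 76.3, 97.1 and 110.7 FPKM in piPSC5, piPSC7 and piPSC8. CTSB held 30.3% to 49.6% of the FPKM of the 9 cathepsins in PEFs and 30% to 34.8% in piPSCs. The aminopeptidase CTSH (-3.12), the aspartic protease CTSD (-2.56), the carboxypeptidase CTSA (-2.43), CTSF (-2.12) and CTSC (-1.84), which activates serine proteases of immune cells, were lower as well. Each had all piPSC values below all PEF values. The make-up of the cathepsins shifted with CTSL, which held 6.66% to 9.67% of their FPKM in PEFs and 1.66% to 2.64% in piPSCs. CTSC held 18.1% to 23.7% in piPSCs and 5.96% to 20.8% in PEFs, where PEF8 stood apart with 261 FPKM against 99.9 in PEF5 and 81.3 in PEF7.

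CTSS, a cysteine protease of antigen-presenting cells, was the exception among the cathepsins of the main list. Its row (ENSSSCG00000006648, chr4:98389479-98470107) had 1.61, 1.19 and 3.34 FPKM in PEF5, PEF7 and PEF8. It had 1.64, 2.5 and 1.96 FPKM in piPSC5, piPSC7 and piPSC8, so the groups overlapped. The log2 difference was 0.05 (95% interval -0.69 to 0.79), and its sign turned under both rescalings (-0.12 and -0.19) and without PEF5 (-0.03), PEF7 (-0.16) or piPSC7 (-0.06). The row does not stand for CTSS alone. In RefSeq, CTSK lies at chr4:98389459-98404969, CTSS at chr4:98415273-98442952 and HORMAD1 at chr4:98447298-98469650, and all 3 fall wholly or nearly so inside that row. The row of ARNT, up to 98404961, covers nearly all of CTSK too, so fragments of CTSK, a collagen-degrading cathepsin, cannot be told apart in these values.

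TPP1, a tripeptidyl peptidase and the 1 other protease of the list, had 28.5, 56.5 and 35.2 FPKM in PEF5, PEF7 and PEF8. It had 30, 19.8 and 22.9 FPKM in piPSC5, piPSC7 and piPSC8. The piPSC value was below that of its own PEF line in lines 7 and 8 and slightly above it in line 5, and the groups overlapped. The log2 difference of -0.66 (SE 0.29, limma adjusted p = 0.0919) did not pass, but passed under both rescalings, at 0.0443 and 0.0293.

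Glycosidases cleave sugars from glycoproteins, glycolipids and glycosaminoglycans, and 6 of the 8 listed by name were lower in piPSCs, with a median of -1.51. GLB1 (ENSSSCG00000024119, chr13:18878612-18955570), the beta-galactosidase, had 79.6, 73.5 and 146 FPKM in PEF5, PEF7 and PEF8. It had 9.73, 9.69 and 15.6 FPKM in piPSC5, piPSC7 and piPSC8. Line 8 was the highest in both groups, and the drop within each line was close to the log2 difference of -2.95 (SE 0.32, limma adjusted p = 0.000789). FUCA1 (ENSSSCG00000027659, chr6:81637698-81723231), the alpha-fucosidase, had 45.9, 43.6 and 52.9 FPKM in the PEF libraries. It had 6.82, 6.56 and 5.18 FPKM in piPSC5, piPSC7 and piPSC8, a log2 difference of -2.76 (SE 0.17, limma adjusted p = 0.000179). The FUCA1 row also covers CNR2, PNRC2 and SRSF10, so its values may hold fragments of these genes.

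The beta-mannosidase MANBA (-2.20), the acid alpha-glucosidase GAA (-1.86) and NAGLU (-1.16), which acts on heparan sulfate, were lower too. NAGLU lost significance without PEF5 (limma adjusted p = 0.055), PEF7 (0.0684), piPSC7 (0.0702) or piPSC8 (0.0829). The sialidase NEU1 had 28.4 ± 2.54 FPKM in the PEF libraries and 14.4 ± 0.666 in the piPSC ones (SD, n = 3). Its log2 difference of -0.93 passed the test (limma adjusted p = 0.00261) but not the 2-fold threshold. GUSB, the beta-glucuronidase, had 63.1, 95.9 and 28.5 FPKM in PEF5, PEF7 and PEF8. It had 25.5, 26.9 and 34.2 FPKM in piPSC5, piPSC7 and piPSC8. The piPSC value was below that of its own PEF line in lines 5 and 7 and above it in line 8, and the groups overlapped at PEF8. The log2 difference of GUSB was -0.94 (SE 0.42, limma adjusted p = 0.102), and -1.41 without PEF8 (0.00879). HEXA, the alpha subunit of beta-hexosaminidase, was matched by identifier and had 86.1 ± 9.95 FPKM in PEFs against 26.5 ± 3.40 in piPSCs, with a log2 difference of -1.66 (limma adjusted p = 0.000586).

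Sulfatases remove sulfate groups from glycosaminoglycans and sulfatides, and the 3 listed by name were all lower in piPSCs. SGSH (ENSSSCG00000017152, chr12:2241841-2249846), the heparan N-sulfatase, had 16.3, 19.7 and 22.9 FPKM in PEF5, PEF7 and PEF8. It had 2.96, 3.07 and 0.165 FPKM in piPSC5, piPSC7 and piPSC8, the last from 7 fragments. ARSA (ENSSSCG00000032428, chr5:107098-112557), which acts on sulfatide, had 22.9, 40.5 and 21.8 FPKM in the PEF libraries. It had 4.84, 6.45 and 0.957 FPKM in piPSC5, piPSC7 and piPSC8. In both genes piPSC8 was the lowest library, and the groups did not overlap. The log2 differences were -2.95 for SGSH (SE 0.50, limma adjusted p = 0.00375) and -2.68 for ARSA (SE 0.53, limma adjusted p = 0.00654). ARSB, which acts on dermatan and chondroitin sulfate, had -2.61. IDS, the X-linked iduronate sulfatase matched by identifier, had 26.8, 29.4 and 14.3 FPKM in PEFs and 15.4, 12.6 and 12.1 in piPSCs. The groups overlapped for IDS, and the log2 difference of -0.71 did not pass (limma adjusted p = 0.0755) but passed without PEF8 (-1.03, 0.00923) and under both rescalings (0.0351 and 0.0286).

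Lipid enzymes were lower in 4 of 4, with a median of -1.42. SMPD1 (ENSSSCG00000014627, chr9:3321793-3328335), the acid sphingomyelinase, was the least abundant of the hydrolases that fell, with 4.45, 4.55 and 4.03 FPKM in PEF5, PEF7 and PEF8. It had 0.514 FPKM in piPSC5 and 1.19 in piPSC7, and it was listed at 0 in piPSC8. A count of 0 allows up to 3 fragments, or 0.0602 FPKM in piPSC8, so PEF8 was at least 66.9-fold higher. This bound covers the counting error only. The log2 difference of SMPD1 was -1.84 (SE 0.32, limma adjusted p = 0.00398) with a pseudocount of 1 and -3.37 with 0.1. LIPA (ENSSSCG00000010450, chr14:101125471-101254677), the acid lipase for cholesteryl esters and triglycerides, had 19.7, 17.9 and 24.3 FPKM in the PEF libraries. It had 6.59, 7.0 and 5.91 FPKM in piPSC5, piPSC7 and piPSC8, a log2 difference of -1.52 (SE 0.18, limma adjusted p = 0.000987). The row of LIPA also covers IFIT1, IFIT2, IFIT5 and CH25H. ASAH1, the acid ceramidase, had -1.31 and PPT1, which removes palmitate from proteins, had -1.08. Without PEF5, PPT1 was -0.97 and no longer reached 2-fold.

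Luminal cofactors were lower in 3 of 3. PSAP (ENSSSCG00000010281, chr14:74734188-74858240) encodes the precursor of the saposins, which present lipids to hydrolases, and was among the most abundant members. It had 589, 665 and 673 FPKM in PEF5, PEF7 and PEF8. It had 53.2, 91.8 and 31.8 FPKM in piPSC5, piPSC7 and piPSC8. The PEF values lay close together and the piPSC values spread by more than 2-fold below them, with a log2 difference of -3.55 (SE 0.36, limma adjusted p = 0.000683). PSAP held 15.9% to 17.4% of the members' FPKM in PEFs and 4.65% to 10.4% in piPSCs. NPC2 (ENSSSCG00000002366, chr7:97730516-97740331), the soluble carrier that hands cholesterol to NPC1, had 335, 218 and 293 FPKM in PEFs. It had 104, 36.9 and 23.4 FPKM in piPSC5, piPSC7 and piPSC8, so piPSC5 kept the most, and its log2 difference was -2.60 (SE 0.52, limma adjusted p = 0.00682). GRN, the granulin precursor, had -1.84 with 48.2 ± 8.71 FPKM in the PEF libraries and 12.6 ± 0.323 in the piPSC ones (SD, n = 3).

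**Figure D3:**
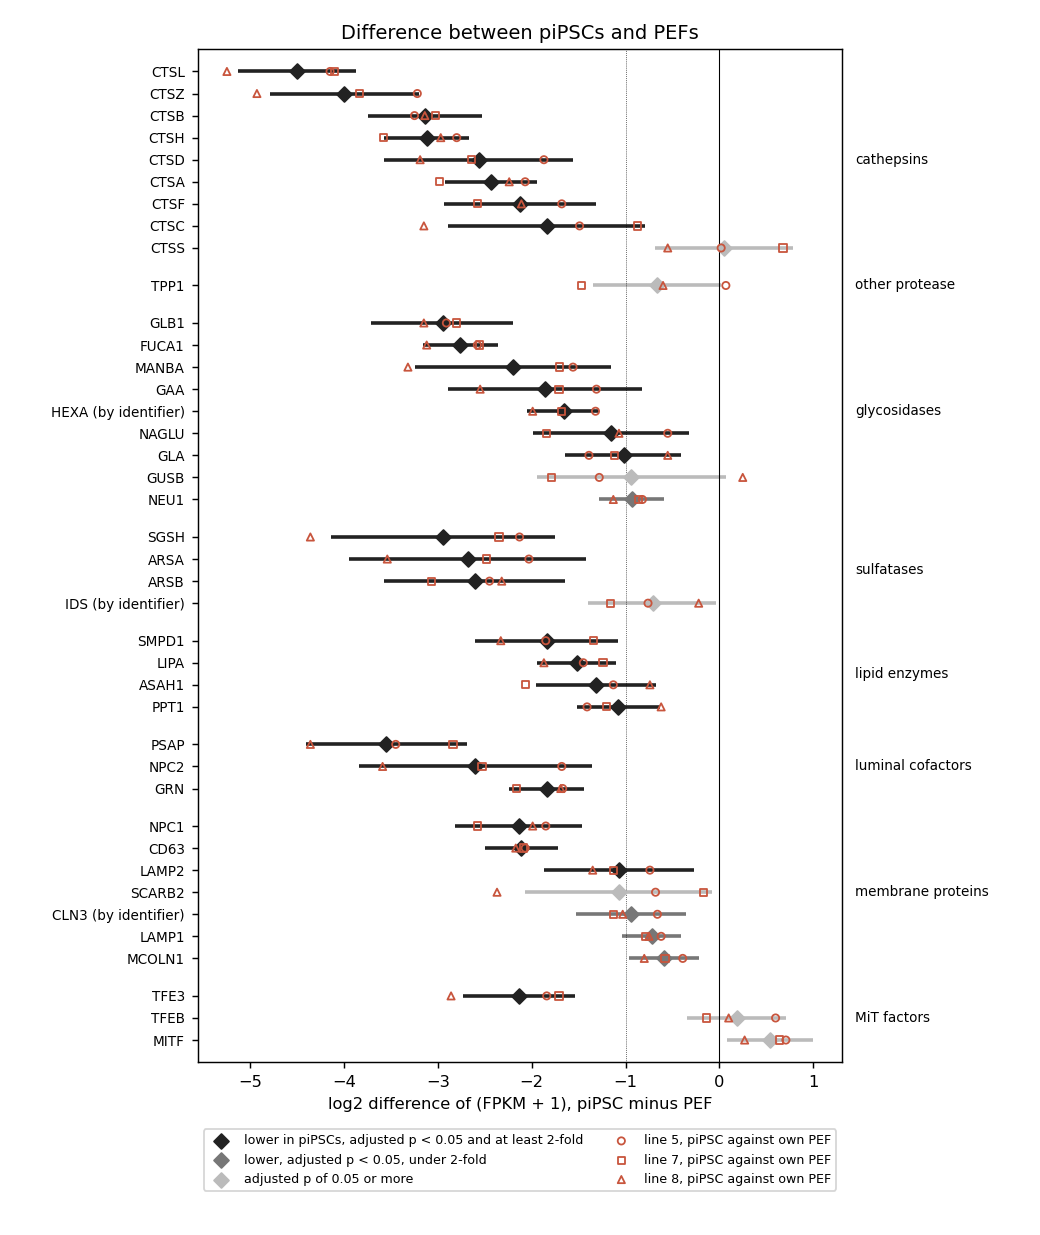
Log2 difference of (FPKM + 1), piPSC minus PEF, for each lysosomal gene, as the limma estimate (diamond) with its 95% interval (bar) and as the ratio of each piPSC line to its own PEF line (open symbols). Estimates run from -4.50 for CTSL to 0.54 for MITF, and line 8 (triangles) often has the lowest ratio, as for SGSH and MANBA, but the highest for GUSB.

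Of the 6 membrane proteins listed by name, 3 were lower by the 2-fold rule and 5 at any size, with a median of -1.07. NPC1 (ENSSSCG00000003707, chr6:108403129-108450486), which exports cholesterol from the lysosome, had 39.7, 63.2 and 31.2 FPKM in PEF5, PEF7 and PEF8. It had 10.3, 9.76 and 7.11 FPKM in piPSC5, piPSC7 and piPSC8. CD63 (ENSSSCG00000000361, chr5:21172279-21176232), a tetraspanin of late endosomes and exosomes, had 586, 724 and 627 FPKM in the PEF libraries. It had 139, 169 and 139 FPKM in the piPSC libraries, and was the most abundant member per length in each of them. Neither gene overlapped between groups, and the log2 differences were -2.14 for NPC1 (SE 0.29, limma adjusted p = 0.0016) and -2.11 for CD63 (SE 0.16, limma adjusted p = 0.000325).

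LAMP1, a heavily glycosylated protein of the lysosomal membrane, had 203 ± 15.8 FPKM in the PEF libraries and 122 ± 2.91 in the piPSC ones (SD, n = 3). Its log2 difference was -0.72 (SE 0.13, limma adjusted p = 0.00494). LAMP1 therefore held 5.03% to 5.34% of the members' FPKM in PEFs but 13.7% to 17.6% in piPSCs. MCOLN1, a calcium channel of the lysosome, had -0.59 (SE 0.15, limma adjusted p = 0.0185), and 0.0544 without PEF8. SCARB2, the receptor that carries glucocerebrosidase, had 45.1, 47.1 and 116 FPKM in PEFs and 27.7, 41.9 and 21.6 in piPSCs. Its groups did not overlap, but the log2 difference of -1.07 (SE 0.42, limma adjusted p = 0.0688) did not pass except under the rescalings, at 0.031 and 0.0295. CLN3, a membrane protein matched by identifier, had 6.07 ± 1.52 FPKM in PEFs against 2.67 ± 0.660 in piPSCs. The log2 difference of CLN3 was -0.94 (limma adjusted p = 0.0184), and it lost significance without PEF8 (0.0571) or piPSC5 (0.0537).

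Of the 3 MiT factors, 1 was lower and the others did not pass. TFE3 (ENSSSCG00000012287, chrX:43100006-43116296) had 39.7, 44.2 and 58.1 FPKM in PEF5, PEF7 and PEF8. It had 10.4, 12.9 and 7.12 FPKM in piPSC5, piPSC7 and piPSC8, without overlap. TFE3 was the most abundant MiT factor per length in all 6 libraries, and its log2 difference was -2.14 (SE 0.25, limma adjusted p = 0.00103). MITF (ENSSSCG00000011514, chr13:51178185-51422093), known as the factor of melanocytes, had 2.16, 2.17 and 2.89 FPKM in PEFs. It had 4.18, 3.95 and 3.69 FPKM in piPSC5, piPSC7 and piPSC8, each above every PEF value. The log2 difference of 0.54 (SE 0.19, limma adjusted p = 0.0532) did not pass, and it was 0.34 and 0.35 under the rescalings. Other settings put MITF past the threshold, at 0.0375 without a trend and 0.0377 with voom on fragments, and its adjusted p over all settings ran from 0.0375 to 0.251. TFEB (ENSSSCG00000001621, chr7:36870242-36921057) had 2.46, 4.20 and 3.50 FPKM in PEFs and 4.25, 3.73 and 3.81 in piPSCs. It overlapped between groups, its lines differed in sign, and its log2 difference of 0.19 (95% interval -0.34 to 0.71) turned to -0.03 and -0.07 under the rescalings. Levels of RNA do not show where in the cell these factors are.

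GLA, LAMP2 and TFE3 are the X-linked members listed by name, and they fell in each line. Transcripts of Y-linked DDX3Y and EIF1AY were found in line 8 only, and whether this bears on X-linked values was not tested. GLA, the alpha-galactosidase, had 14.6, 11.5 and 13.6 FPKM in PEF5, PEF7 and PEF8. It had 4.95, 4.76 and 8.96 FPKM in piPSC5, piPSC7 and piPSC8, so line 8 kept the most. GLA had a log2 difference of -1.02 (limma adjusted p = 0.016), which was -0.95 without PEF5 (0.0552), -0.91 without piPSC5 (0.058) and under 2-fold without piPSC7. Its row also overlaps HNRNPH2 and RPL36A. LAMP2, a membrane protein needed for fusion with autophagosomes, had 23.6, 35.4 and 19.9 FPKM in PEFs. It had 13.8, 15.7 and 7.16 FPKM in piPSC5, piPSC7 and piPSC8, so line 8 kept the least. LAMP2 had -1.07 (limma adjusted p = 0.0348) and lost significance without PEF5 (0.0748), PEF7 (0.104), piPSC5 (0.0627) or piPSC8 (0.0668).

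The piPSC value was below that of its own PEF line for 33 of the 37 members in line 5, 35 in line 7 and 34 in line 8. The median log2 ratio of a piPSC line to its own PEF line was -1.67 in line 5, -1.84 in line 7 and -2.24 in line 8. For all tested genes it was 0.21, 0.24 and 0.08. At least 2-fold lower were 27, 29 and 27 of the 37 members in lines 5, 7 and 8, against 18.6%, 17.2% and 23.8% of all tested genes. Among the piPSC libraries, piPSC8 was the lowest for 26 of the 37 members, against 42.1% of all tested genes. piPSC8 also had the lowest fragment total worked back from FPKM, and the part of depth in its low values was not tested. Without piPSC8, 26 of the 37 members were lower by the 2-fold rule.

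The members were then split by the E-box core of their promoters. The 9 that hold it had a median log2 difference of -0.94, from -2.95 (SGSH) to -0.59 (MCOLN1), and 4 of them were lower by the 2-fold rule. The 27 without it had a median of -2.14, from -4.50 (CTSL) to 0.54 (MITF), and 23 of them were lower. The counts depended on the scale, with 5 of 9 and 24 of 27 lower after rescaling to the median ratio and 7 of 9 and 24 of 27 after rescaling to equal sums. The medians were then -1.20 with the core and -2.39 without it, and -1.28 and -2.52. Among all tested genes with a matched promoter, 1052 held the core and 15.4% of these were lower, against 17.9% of the 9469 without it. LAMP1, LAMP2, MCOLN1, NEU1, GUSB and TPP1, whose stretches are printed above, lie at the weak end, while SGSH, CTSA and CTSF do not. Members without the core lie there too. MITF (0.54), TFEB (0.19) and CTSS (0.05) do not hold it and were not lower. GLA (-1.02), SCARB2 (-1.07) and PPT1 (-1.08) do not hold it either. HEXA, CLN3 and IDS, matched by identifier, were left out of the split. HEXA holds the core and had -1.66, while CLN3 (-0.94) and IDS (-0.71) do not hold it. This grouping was looked at with the fold changes known, and it is a description with no test. A match of letters is not a binding site, and only the RefSeq start of each gene was searched. For some members the deposited row starts elsewhere. PSAP starts at chr14:74858240 there and at 74820645 in RefSeq, and ARSB at chr2:87828552 and 87779553. Cores near the starts of the deposited rows were not looked for.

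**Figure D4:**
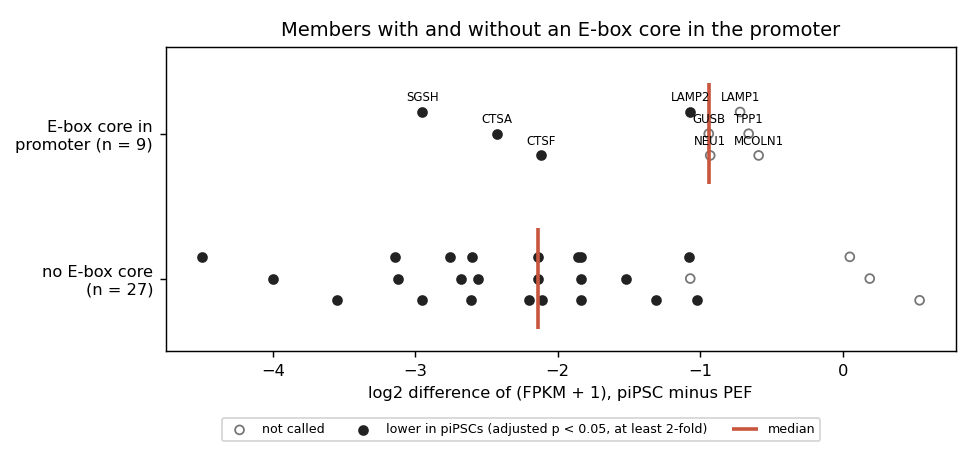
Log2 difference of (FPKM + 1), piPSC minus PEF, of the 36 members with a matched promoter, split by whether the promoter holds the E-box core, with the median of each row as a bar. The medians are -0.94 with the core and -2.14 without it, and 6 of the 9 named genes lie between -1.07 and -0.59. Genes without the core run from -4.50 to 0.54.

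Other genes of the pathway were taken from whole lists, which were chosen with earlier results of these data known. Over all tested genes, 16.7% were lower and 20.2% higher by the 2-fold rule. Of 25 tested lysosomal hydrolases and luminal proteins outside the main list, 14 (56%) were lower and 1 higher, with a median of -1.32. GM2A, the cofactor that presents a ganglioside to hexosaminidase, had 35.18 ± 14.04 FPKM in PEFs against 1.07 ± 1.22 in piPSCs, with a log2 difference of -4.19 (limma adjusted p = 0.000947). IFI30, a thiol reductase of antigen processing, had -4.01 (limma adjusted p = 0.000469). NAAA, an acid amidase for fatty acid amides, was the 1 higher gene, with 1.37 (limma adjusted p = 0.0354), but it missed the threshold with the line as a block (0.0832), under both rescalings (0.0701 and 0.067) and without PEF5 (0.109), PEF8 (0.099), piPSC5 (0.108) or piPSC8 (0.0928). Of 26 other lysosomal membrane proteins, 6 (23.1%) were lower and 1 higher, with a median of -0.46, and 11 were lower after rescaling to equal sums. MCOLN3, a channel related to MCOLN1, had -2.79 (limma adjusted p = 0.0217) and 1.84, 4.24 and 25 FPKM in PEF5, PEF7 and PEF8, so PEF8 stood apart. Its adjusted p was 0.0622 without piPSC5 and 0.0571 without piPSC7. CTNS, the cystine exporter, had -2.31 (limma adjusted p = 0.00152). LAPTM4B, a small transmembrane protein, was higher in piPSCs, with 163.9 ± 92.7 FPKM against 47.2 ± 14.1 and a log2 difference of 1.67 (limma adjusted p = 0.0168). Its adjusted p was 0.0504 without PEF5 and 0.0553 without PEF8.

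The V-ATPase pumps protons into the lysosome. Of its 17 tested subunits and accessory proteins, 6 (35.3%) were lower and 0 higher by the 2-fold rule, with a median of -0.65. Over all tested genes, 16.7% were lower and 20.2% higher by this rule. TCIRG1, the a3 subunit known from osteoclasts, had -1.85 (limma adjusted p = 0.00101) and ATP6V0D1 had -1.72 (limma adjusted p = 0.000824). Of 24 tested genes that tag or sort hydrolases, 3 (12.5%) were lower and 0 higher, with a median of 0.06 that lay near that of all genes. Under either rescaling, 5 were lower. At an adjusted p under 0.05 and any size of change, 6 were lower and 6 higher, against 2667 and 3763 of all 12428 tested genes. LRP1, an endocytic receptor, had -4.24 (limma adjusted p = 0.00118) and the sorting receptor SORT1 had -1.81 (limma adjusted p = 0.035). SORT1 lost its call without PEF5 (0.106), PEF7 (0.0996) or piPSC5 (0.0577). SUMF1, the enzyme that activates all sulfatases, was the third, with -1.67 (limma adjusted p = 0.00112). Of 6 tested cystatins and other cathepsin inhibitors, 4 (66.7%) were lower, namely CST3, CSTB, SPOCK1 and SPOCK3. SPOCK3 had -2.72 (limma adjusted p = 0.0159) and SPOCK1 had -2.10 (limma adjusted p = 0.00285). The count was 2 without PEF8 or without piPSC5, where SPOCK3 (0.0547 and 0.0567) and CSTB (0.0501 and 0.131) lost their calls, and SPOCK3 lost its call without PEF5 too (0.0524). CSTB, at -1.02 (limma adjusted p = 0.0462), was also not called without the filter (0.0764), without a trend (0.0544), with quantile normalization (0.0585), with voom (0.0576) or without PEF7 (0.081), piPSC7 (0.0781) or piPSC8 (0.0937).

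**Figure D5:**
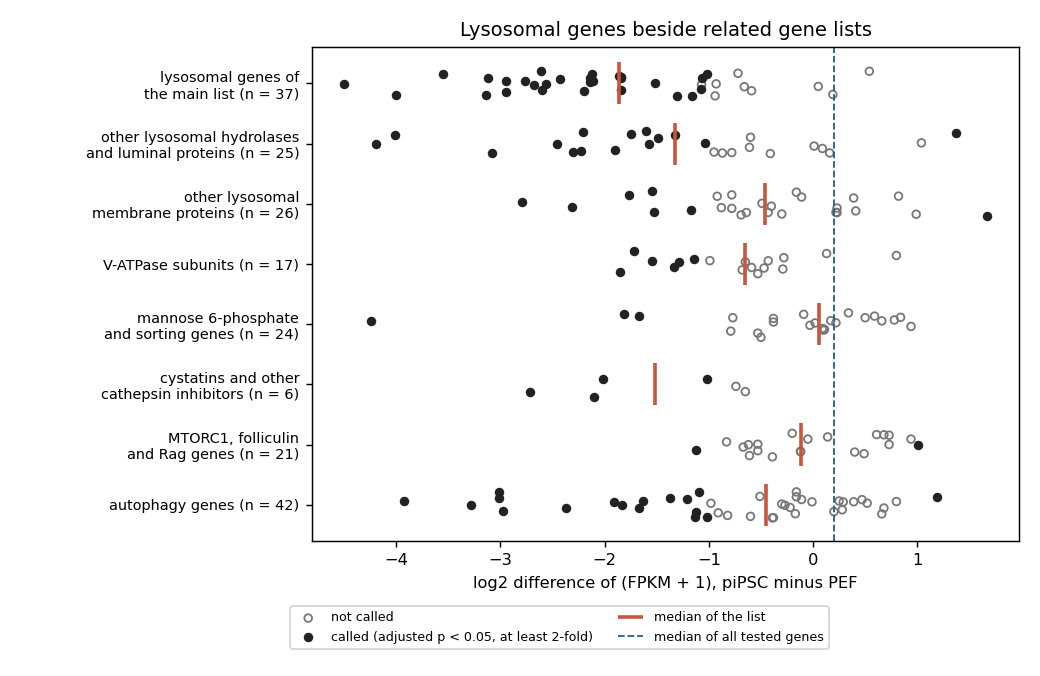
Log2 difference of (FPKM + 1), piPSC minus PEF, of the tested genes of the main list and of 7 related lists, with filled points for called genes, a red bar for the median of each list and a dashed line for the median of all tested genes (0.20). The medians run from -1.86 for the main list to 0.06 for the mannose 6-phosphate and sorting genes.

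Of 21 tested MTORC1, folliculin and Rag genes, which act upstream of the MiT factors, 1 (4.76%) was lower and 1 higher, with a median of -0.12. At an adjusted p under 0.05 and any size of change, 5 were lower and 5 higher, against 2667 and 3763 of all 12428 tested genes. LAMTOR1, the anchor of the Ragulator complex on the lysosome, had -1.12 (limma adjusted p = 0.00412) and -0.99, under 2-fold, without piPSC8. RPTOR, the substrate-binding subunit of MTORC1, had 1.01 (limma adjusted p = 0.0253) but 0.78 and 0.81 under the rescalings (0.0682 and 0.0865), 0.75 without PEF8 (0.053), 0.88 without piPSC5 (0.0874) and 1.00 without piPSC8 (0.0597). Of 42 tested autophagy genes, 16 were lower and 1 higher, with a median of -0.45. WIPI1, which binds phosphoinositides on forming autophagosomes, had 24.5, 29.0 and 22.8 FPKM in PEFs and 0.837, 1.04 and 0.37 in piPSCs, with a log2 difference of -3.93 (limma adjusted p = 0.000165). MAP1LC3A, a protein of the autophagosome membrane, had -3.28 (limma adjusted p = 0.00178). PIK3R4, a subunit of a phosphoinositide kinase complex, was the 1 higher gene, with 1.19 (limma adjusted p = 0.0252), but 0.96 and 0.98 under the rescalings (0.061 and 0.0615) and 0.84 without piPSC8, and its adjusted p was 0.0587 to 0.0777 without PEF5, PEF7, PEF8 or piPSC5. The share of lower genes was 38.1% of the autophagy list and 12.5% of the sorting list, beside 75.7% of the main list and 16.7% of all tested genes.

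Markers of other cell types were read beside these values, since several members are abundant in phagocytes and osteoclasts. Summed FPKM of 10 listed macrophage and monocyte markers was 12.7 to 24.9 in PEFs and 1.93 to 2.82 in piPSCs. CD14 made up most of the PEF sum, with 9.20, 21.9 and 13.1 FPKM, while CSF1R did not exceed 0.313 FPKM in any library and CD163 did not exceed 0.0197. SPI1 had 1.62 to 3.49 FPKM in PEFs and 0.947 to 2.40 in piPSCs (limma adjusted p = 0.219). TYROBP had 0.401 to 1.30 FPKM in PEFs and 0 in every piPSC library. The 4 listed osteoclast markers had a sum of at most 0.202 FPKM. Melanocyte markers summed to between 8.71 and 26.9 FPKM in PEFs and to between 0.499 and 0.934 in piPSCs, and MLANA made up most of the PEF sum, with 8.12, 7.84 and 25.6 FPKM against 0 in every piPSC library. The other 7 melanocyte markers did not exceed 1.40 FPKM in any library and had too low a mean to be tested. Keratinocyte markers summed to between 4.60 and 5.19 FPKM in PEFs and to between 6.96 and 11.4 in piPSCs. Endothelial ones summed to at most 2.59 in PEFs and 1.17 in piPSCs, and muscle markers to at most 0.755 and 14.2. DES made up most of the highest muscle sum, with 0.1645, 14.16 and 2.515 FPKM in piPSC5, piPSC7 and piPSC8. MYOD1 and MYF5 were at 0 in every piPSC library. The loss of fibroblast markers moved with the members across the groups, and its part in their lower levels was not tested.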

How the data were processed

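Poly-A RNA of 3 PEF and 3 piPSC lines was sequenced from both ends over 150 bp. The authors deposited FPKM values per gene. The submitters' processing notes name HISAT2 2.1.0, Bowtie2 2.2.3, HTSeq 0.6.0 and Sscrofa11.1. The treatment of reads shared between genes is not given in the sources used here. Of 13232 symbols shared with RefSeq, 99.7% lie at overlapping positions. Within a tolerance of 1e-05 of a fragment plus an allowance for the rounding of the deposited values, FPKM of all 18007 genes were whole multiples of 1 fragment, which gave fragments and totals per library.

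Groups were compared with limma 3.58.1 in R 4.3.3 (eBayes with a trend, not robust, two-sided, unpaired) on log2(FPKM + 1). The 12428 genes whose FPKM averaged 0.5 or more were tested, with Benjamini-Hochberg adjustment over all of them. Differences are on that scale, which understates changes of low genes. Calls needed an adjusted p under 0.05 and a 2-fold change. Fits, fragments and motif counts were tested on simulated data. Lines are paired by origin. What a PEF and a piPSC library deviated from their group means correlated across genes at 0.0921, 0.0946 and 0.08 within lines 5, 7 and 8, and at -0.121 to 0.0553 otherwise. Counts and promoters were handled in Python 3.11.15 with numpy 2.4.6 and pandas 2.3.3.

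The members and the lists were chosen with earlier results of these data known. Values of every library are given for the 2 members of each role with the largest difference, for those higher in piPSCs, those whose lines differ in sign and the X-linked ones, and the 2 called genes with the largest difference are named from each other list. CTSB, CTSV, CTSO, NEU1, LAMP1, SCARB2, GRN, HEXA, CLN3, SUMF1, NAAA, LAPTM4B, PIK3R4, CST3 and CSTB were described further after their values were seen. Protein sequences were not used here.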

Additional observations from a re-analysis of the deposited data

How the results depend on the processing

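The alternatives were both rescalings, the line as a replicate block, testing every gene or only those averaging 1 FPKM or more, 0.1 as the pseudocount, quantile normalization, no trend, voom on recovered fragments and each library left out. The number of members lower in piPSCs was 28 in the paired fit with the line as a block, which changed no member's call. The number was 26 to 32 with all libraries and 24 to 29 with 1 library left out, and 0 members were higher under any of these settings. Differences of single members, HEXA, IDS and CLN3 included, kept their sign and side of the threshold in 567 of 600 values. They turned sign in 7, those of CTSS (-0.12, -0.19, -0.03, -0.16 and -0.06) and TFEB (-0.03 and -0.07). Without 1 library, the difference of CTSS ran from -0.16 to 0.33. Significance was lost in 15, for LAMP2, NAGLU, GLA, MCOLN1 and CLN3, and gained in 11, for GUSB, IDS, SCARB2, TPP1 and MITF. Without the filter, LAMP2 and NAGLU were lost (adjusted p = 0.0569 and 0.0555). Depth limits SMPD1, CTSZ and SGSH in piPSC8. Under voom their differences were -4.50, -5.35 and -3.93. Reads from the mouse feeders cannot be told apart in a table of values per gene, and overlapping genes cannot be separated. Such overlaps were named above for some members only. Among the other rows that overlap another gene are CTSB (FDFT1), PSAP (CHST3), NPC2 (ISCA2) and NPC1 (C18orf8). SGSH (CARD14), SMPD1 (APBB1), MANBA (NFKB1) and PPT1 (CAP1) are further cases. The causes of these shifts were not tested.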
